A study of Mus musculus with 36 samples.

Results

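The transcription factors of naive mouse pluripotency described here are 9 genes: *Esrrb*, *Zfp42* (also called Rex1), *Tbx3*, *Klf2*, *Klf4*, *Klf5*, *Tfcp2l1*, *Nr5a2* and *Nr0b1* (also called Dax1). They were chosen by name, though with earlier results of these data known. All 9 were found among the 50600 genes listed for the sorted Day 3 libraries and the 29267 listed for the other libraries. The 11 bulk RNA-seq libraries follow mouse epiblast stem cells (EpiSCs), a primed pluripotent state, through the BMP4-induced primed-to-naive transition. EpiSCs (3 libraries, each with a description of its own) were kept in N2B27 medium with Activin A, bFGF and the tankyrase inhibitor XAV939. Day 3 cells had spent 3 days in Stage 1 medium, which holds BMP4, LIF, CHIR99021 (a GSK3 inhibitor), LiCl, bFGF, vitamin C and the EZH2 inhibitor EPZ6438. In full it also holds an inhibitor of the H3K79 methyltransferase DOT1L, either EPZ5676 or SGC0946. From that stage there are sorted c-Kit+ cells (2 libraries), sorted c-Kit- cells (2 libraries), and 1 unsorted library each with and without SGC0946. The labels do not say which DOT1L inhibitor the sorted cells received, nor whether EPZ5676 was present in the library without SGC0946. The paper describes that library as made without a DOT1L inhibitor. Day 6 BV+SC+ cells (2 libraries) had EPZ5676 as the DOT1L inhibitor during those 3 days, spent a further 3 days in stage 2 culture and were sorted for Blimp1-mVenus and Stella-ECFP (their source label is PGCLC), transgenic reporters of *Prdm1* and *Dppa3* carried by an EpiSC line that was itself derived from embryonic stem cells. For stage 2 the growth protocol of both libraries names 2i and vitamin C, but their descriptions give GK15 for 1 and 2iJi for the other. The medium of each is therefore uncertain, and culture condition and replicate cannot be told apart.

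Naive pluripotency is the state of the preimplantation epiblast, and mouse embryonic stem cells hold it in culture with LIF and inhibitors of MEK and GSK3. The factors form a mutually reinforcing network around Oct4, Sox2 and Nanog. LIF acts through STAT3 on *Klf4* and *Tfcp2l1*, GSK3 inhibition relieves repression by *Tcf7l1* at *Esrrb* and other genes, and *Tbx3* lies downstream of PI3K signalling. In primed cells most of the network is silent, and forced expression of *Klf2*, *Klf4*, *Esrrb*, *Nr5a2* or *Tfcp2l1* can return EpiSCs to the naive state. DOT1L methylates lysine 79 of histone H3 along transcribed genes, and its inhibition eases several kinds of reprogramming.

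Library totals were 2444211 to 3070115 expected counts in EpiSCs, 4577685 and 4776143 in the unsorted Day 3 libraries without and with SGC0946, 1726038 to 1841442 in the sorted Day 3 libraries, and 14778809 to 18099059 in BV+SC+ cells, so low genes were measured most precisely in BV+SC+ cells. Levels are given as TPM, in which RSEM divides the counts by effective transcript length and by the library's total. The genes that define the groups followed the labels. *Kit* stood at 4.81 and 3.24 TPM in c-Kit- cells and at 99.6 and 96.0 TPM in c-Kit+ cells, and *Prdm1* and *Dppa3* were at 128 to 1202 TPM in BV+SC+ cells. *Dot1l* was at 62.1 TPM without and 66.8 TPM with SGC0946, which is no check of a drug that blocks the enzyme. The sorted cells differed in trophoblast markers, whose summed level over 14 genes was 3611 to 4248 TPM in c-Kit+ cells and 16772 to 18040 TPM in c-Kit- cells. Scaled over the genes common to all files, the c-Kit+ sum was 5090 to 5901 TPM and the c-Kit- sum 21602 to 22686 TPM, against 194 to 227 TPM in EpiSCs, 5101 and 4902 TPM without and with SGC0946, and 170.0 and 513 TPM in BV+SC+ cells. In bulk libraries such as these, fewer cells of a type and less RNA per cell cannot be told apart. No label says that replicates came from separate cultures, so p-values measure only the spread between these samples, which may be technical.

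Levels were set across the stages after the TPM of each library had been scaled to the same total over the 28910 genes common to both kinds of file, which are called rescaled TPM below. Counting a gene as reached at the earliest stage where every library stood at 5 rescaled TPM or more, 2 members were reached in EpiSCs (*Klf2* and *Klf5*), 5 at Day 3 in c-Kit+ cells (*Esrrb*, *Tbx3*, *Klf4*, *Tfcp2l1* and *Nr5a2*), and 2 at Day 6 (*Zfp42* and *Nr0b1*). *Tbx3* and *Klf4* were below that level again in 1 or more BV+SC+ libraries. Through the unsorted library with SGC0946 the order was the same except that *Tfcp2l1* waited until Day 6. Through the library without SGC0946, 5 members were reached at Day 6: *Esrrb*, *Nr5a2*, *Tfcp2l1*, *Zfp42* and *Nr0b1*. Through c-Kit- cells there were 4, which were *Esrrb*, *Nr5a2*, *Zfp42* and *Nr0b1*.

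The placing of some genes hung on the level chosen. At 2 rescaled TPM *Klf4* was reached in EpiSCs, and *Tfcp2l1* and *Nr0b1* at Day 3 with SGC0946. At 10 rescaled TPM *Klf2* moved to Day 3 on both routes, *Esrrb* moved to Day 6 with SGC0946, *Tfcp2l1* moved to Day 6 in the c-Kit+ route, and *Tbx3* was not reached there at all. *Esrrb* and *Nr5a2* stayed at Day 3 in c-Kit+ cells at 2, 5 and 10 rescaled TPM, and *Zfp42* and *Nr0b1* stayed at Day 6 on that route.

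**Figure D1:**
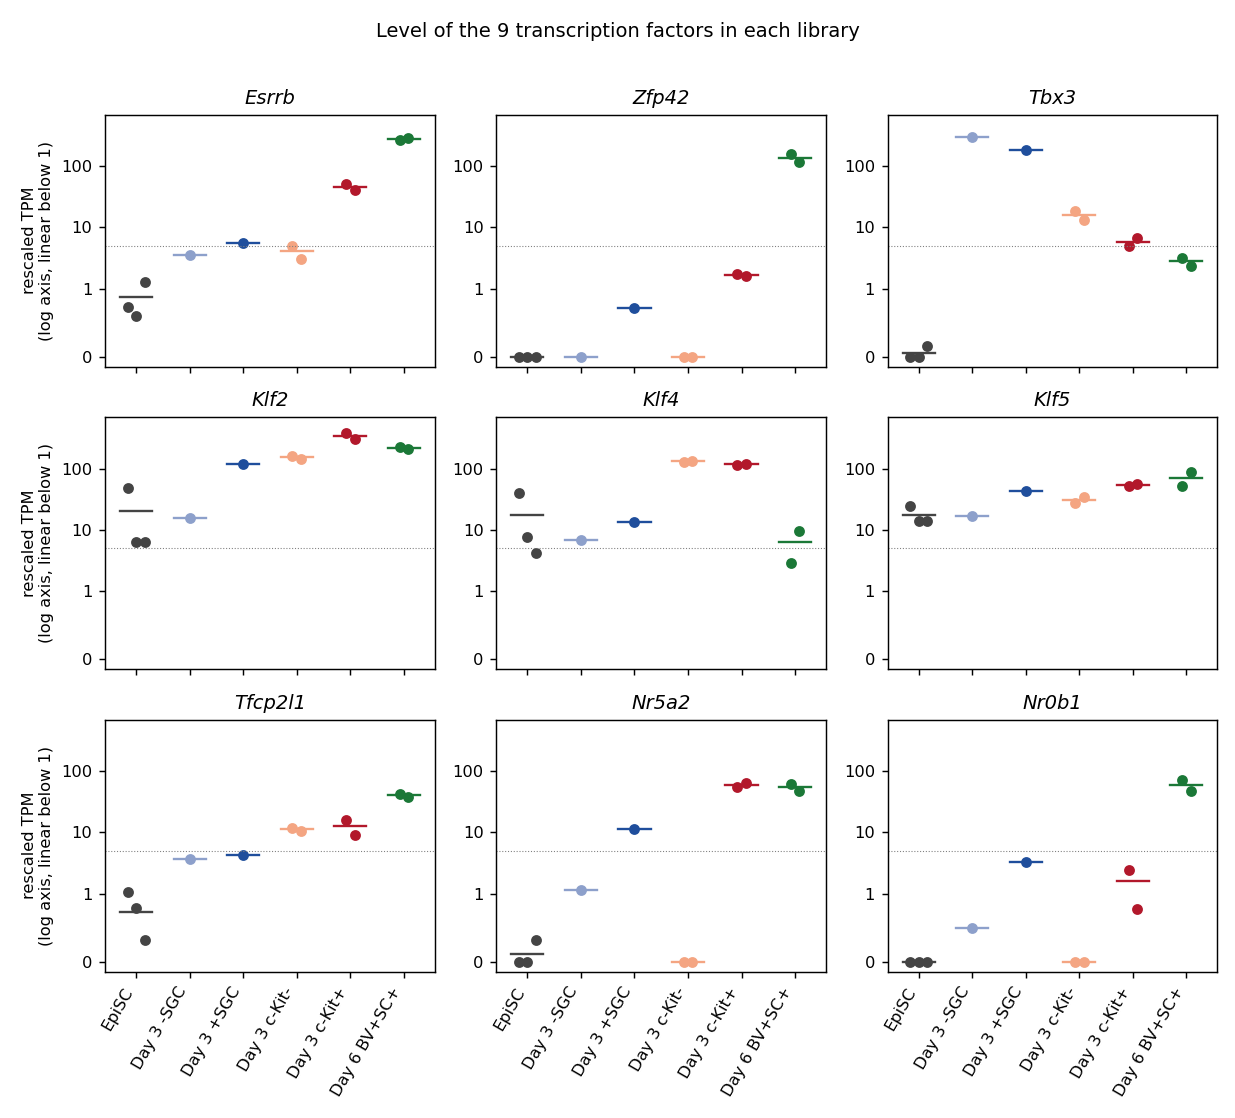
Level of each of the 9 members in each of the 11 libraries, in rescaled TPM on an axis that is linear below 1 and logarithmic above it. Each point is 1 library, columns are the 6 groups, and the dotted line marks 5 TPM. *Zfp42* and *Nr0b1* lie below the line in every group except Day 6 BV+SC+, and *Tbx3* is highest in the 2 unsorted Day 3 libraries.

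To place Day 3 between the end points, the rise from EpiSCs to BV+SC+ cells on the log2(rescaled TPM + 1) scale was taken as 100% for each of the 8 members whose EpiSC and BV+SC+ libraries did not overlap. c-Kit+ cells stood at 102% ± 2.65 of that rise (SD, n = 2) for *Nr5a2*, 116% ± 5.20 for *Klf2*, 84.1% ± 3.40 for *Klf5*, 64.0% ± 3.08 for *Esrrb* and 64.3% ± 11.7 for *Tfcp2l1*. They stood at 22.2% ± 11.6 for *Nr0b1* and 19.8% ± 0.547 for *Zfp42*, the lowest of the 8. These 2 values rest on 1 to 3 counts in each c-Kit+ library, and with a pseudocount of 0.1 they were 42.5% and 39.7%. Each SD covers the c-Kit+ libraries alone, with the end points held fixed. For *Klf5* the value was 70.2% without BV+SC+ replicate 1 and 105% without BV+SC+ replicate 2. The median over the 8 members was 74.2% in c-Kit+ cells, 31.5% in c-Kit- cells, 48.7% with SGC0946 and 13.6% without it. These medians mix files made in 2 ways and carry no test. They leave out *Klf4*, whose end points overlapped, and include *Tbx3*, which lay past its end point, at 146% in c-Kit+ cells and 443% without SGC0946. On deposited TPM, without rescaling, the c-Kit+ median was 58.6%.

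**Figure D2:**
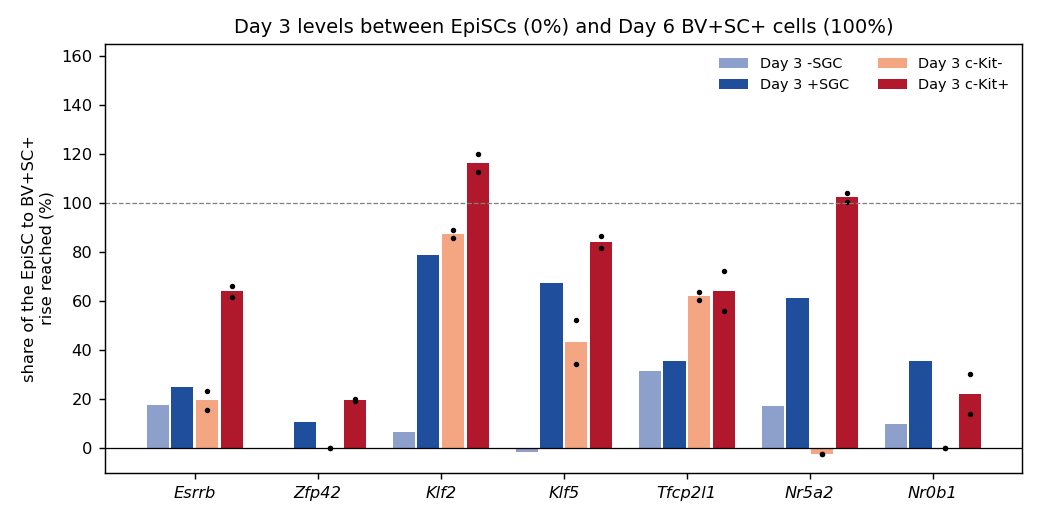
Share of the EpiSC to Day 6 BV+SC+ rise, in percent of the log2(rescaled TPM + 1) difference, that each Day 3 library had reached, with 0 at the EpiSC mean and 100 at the BV+SC+ mean. Each point is 1 library. *Tbx3*, whose shares run from 137 to 443, and *Klf4*, whose end points overlap, are left out. *Nr5a2* sits near 100 in c-Kit+ cells and near 0 in c-Kit- cells, and *Zfp42* and *Nr0b1* are the lowest plotted members in the c-Kit+ group.

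The members were compared within each set of libraries processed alike. Between c-Kit+ and c-Kit- cells, 7 of the 9 members passed the filter on low counts. Of these, 3 (*Esrrb*, *Klf2* and *Nr5a2*) were called higher in c-Kit+ cells, with a background of 9.98% of the 11018 genes tested, and 0 were called lower, with a background of 12.9%; in either direction the background was 22.9%. A call means an adjusted p under 0.05 in edgeR's quasi-likelihood test together with a change of over 2-fold. *Esrrb* and *Nr5a2* passed the filter through the c-Kit+ libraries alone, which favours calls in that direction. The median log2 fold change of the 7 was 0.80, against 0.03 over all genes tested.

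Between BV+SC+ cells and EpiSCs all 9 passed the filter, 5 of them through the BV+SC+ libraries alone (*Esrrb*, *Zfp42*, *Tbx3*, *Nr5a2* and *Nr0b1*). BV+SC+ cells were called higher for 8 of 9, where the background was 16.8% of 11792 genes, and the exception was *Klf4*; 0 were called lower (background 17.2%, and 34% in either direction). The median log2 fold change of the 9 was 5.80, or 5.50 with genes at 0 in EpiSCs set to their lower bound, against 0.05 over all genes. Among the 4 members that passed in both groups, *Klf2*, *Klf5* and *Tfcp2l1* rose.

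With SGC0946, 4 of the 8 members above 1 TPM in either unsorted library (*Klf2*, *Klf5*, *Nr5a2* and *Nr0b1*) were over 2-fold higher on the log2(TPM + 1) scale than without it, beside a background of 6.33% of 14038 genes. 0 of the 8 were over 2-fold lower, where the background was 3.45% (9.78% in either direction). *Nr0b1* passed the filter through the library with SGC0946 alone, and with 1 TPM required in both libraries 3 members were over 2-fold higher. The median change was 1.10, against 0.01 over all genes. There is 1 library on each side, so this difference has no replicate check, and the intervals printed with it cover counting error only.

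**Figure D3:**
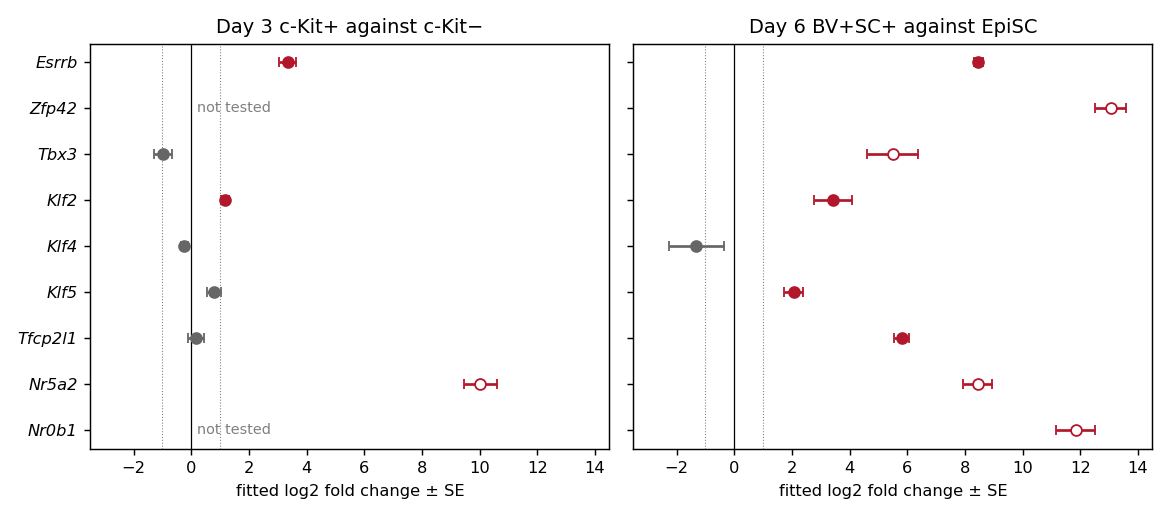
Log2 fold change with its standard error for each tested member, c-Kit+ against c-Kit- cells (left) and BV+SC+ cells against EpiSCs (right), from edgeR. Red points are called, grey points are not, the dotted lines mark 2-fold, and open circles mark genes with a group at or near 0 counts, whose fitted value depends on the prior count. On the left 3 of 7 members are called and on the right 8 of 9, with *Klf4* the exception.

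Among the nuclear receptors, *Esrrb* (estrogen-related receptor beta, chr12:86361117-86521628, plus strand, GRCm38) is a direct partner of Oct4 and Nanog in naive cells and needs no known ligand. It was detected at 0.72, 0.60 and 1.28 TPM in the EpiSC libraries, from 3 to 5 counts each. c-Kit- cells held 4.01 and 2.39 TPM and c-Kit+ cells 36.4 and 28.7 TPM, and BV+SC+ cells reached 273 and 287 TPM. The c-Kit groups did not overlap, nor did EpiSCs and BV+SC+ cells, and the 2 BV+SC+ libraries lay close together. The c-Kit difference was 3.34 ± 0.30 (log2 fold change ± SE, adjusted p = 3.74e-05, edgeR quasi-likelihood test with Benjamini-Hochberg adjustment), and BV+SC+ cells stood 8.47 ± 0.17 above EpiSCs (adjusted p = 4.47e-07, same test), or 354-fold.

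In the unsorted libraries *Esrrb* was at 3.48 TPM without and 5.47 TPM with SGC0946, from 27 and 58 counts. Both values lay far below the 50.6 and 40.4 rescaled TPM of c-Kit+ cells. The log2 change in TPM + 1 was 0.53 (95% counting interval -0.02 to 1.08), which includes 0, while the same counts gave 0.93 as CPM, counts corrected for library size alone. RSEM's effective length for the gene, by which TPM divides, was 3096 bases without and 3984 bases with SGC0946. The order of the groups in rescaled TPM was EpiSC, Day 3 without SGC0946, c-Kit-, Day 3 with SGC0946, c-Kit+ and BV+SC+, with the library without SGC0946 inside the c-Kit- range.

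*Nr5a2* (liver receptor homolog 1, chr1:136842571-136960448, minus strand) can stand in for Oct4 in reprogramming. It gave 0 counts in both c-Kit- libraries, and 121 and 134 counts, or 39.8 and 45.5 TPM, in c-Kit+ cells. EpiSCs held 2 counts in all, in 1 of the 3 libraries, and BV+SC+ cells 62.2 and 46.8 TPM. No other member was absent from c-Kit- cells and yet as high in c-Kit+ as in BV+SC+ cells: in rescaled TPM c-Kit+ cells held 55.2 and 64.1 and BV+SC+ cells 62.4 and 46.9, which overlap. The level in c-Kit+ cells was at least 43.8-fold higher than the 3 counts per library taken as the limit in c-Kit- cells (adjusted p = 5.95e-06, edgeR), and the ratio of BV+SC+ cells to EpiSCs was 366 (95% counting interval 101 to 3026, adjusted p = 1.30e-05, edgeR).

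The unsorted libraries gave *Nr5a2* 13 counts (1.15 TPM) without SGC0946 and 101 counts (11.2 TPM) with it. The log2 change was 2.50 (1.96 to 2.99). In rescaled TPM the library without SGC0946 (1.15) lay above the EpiSC libraries (0 to 0.32). The library with SGC0946 (11.2) lay between EpiSCs and c-Kit+ cells. The 2 other genes whose 6 group means lay closest to those of *Nr5a2* were *Gdf3*, a TGF-beta ligand of pluripotent cells (root mean square difference 0.45 on the log2 scale), and *Nanos3*, an RNA-binding protein of primordial germ cells (0.60), out of 10576 genes searched.

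*Nr0b1* (chrX:86191764-86195947, plus strand), an orphan receptor without a DNA-binding domain of the usual kind that acts as a corepressor, was among the last to appear. All 3 EpiSC libraries and both c-Kit- libraries gave 0 counts, and c-Kit+ cells gave 3 and 1 counts, or 1.77 and 0.55 TPM, too few for a test. BV+SC+ cells held 998 and 788 counts, or 71.4 and 46.9 TPM. That is at least 45.1-fold higher than the limit in EpiSCs (adjusted p = 6.71e-05, edgeR). With SGC0946 the count was 14 (3.29 TPM) against 2 (0.50 TPM) without it, a ratio of 6.58 (1.51 to 59.7).

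*Zfp42* (chr8:43295063-43306980, minus strand), a zinc finger protein of the YY1 family and a standard reporter of the naive state, behaved much like *Nr0b1*. EpiSCs, c-Kit- cells and the library without SGC0946 gave 0 counts, the library with SGC0946 gave 3 counts (0.71 TPM), and each c-Kit+ library gave 2 counts (1.23 and 1.14 TPM). BV+SC+ cells held 161 and 116 TPM, from 2236 and 1931 counts. Levels at Day 3 are at the limit of what these depths can show, and BV+SC+ cells were at least 105-fold above that limit in EpiSCs (adjusted p = 1.94e-05, edgeR). Part of the transcript, 28.4% of its sequence, is shared with the pseudogene *Zfp42-ps1* at 98% identity or more over at least 75 bases. No gene of that name was among those listed for these libraries, and its part in the *Zfp42* counts was not tested. *Nr0b1* was the member nearest to *Zfp42* in pattern (root mean square difference 0.77), and the nearest other genes were *Phf11d* (0.26) and *Tcl1* (0.28), for *Nr0b1* *Dnd1* (0.17) and *Pdzk1* (0.37).

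The stretches just upstream of the start sites of these late members are shown beside those of *Klf2* and *Klf4*, which were already transcribed in EpiSCs, since the groups differed in CpG content. The sequences are from RefSeq (GRCm38.p6), written 5′ to 3′ on the strand of each gene and ending close upstream of the gene span given here, with each CpG in capitals. RefSeq windows from 250 bases before to 50 bases after the start were found for 7 of the 9 members, as 9 windows.
*Zfp42*, chr8:43307010-43307259, minus strand, 250 bases, 9 CpGs: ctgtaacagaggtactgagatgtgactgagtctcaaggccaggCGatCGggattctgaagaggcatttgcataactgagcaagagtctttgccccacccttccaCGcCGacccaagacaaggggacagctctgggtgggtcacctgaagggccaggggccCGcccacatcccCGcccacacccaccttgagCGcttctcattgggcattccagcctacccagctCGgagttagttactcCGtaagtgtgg
*Nr0b1*, chrX:86191525-86191763, plus strand, 239 bases, 10 CpGs: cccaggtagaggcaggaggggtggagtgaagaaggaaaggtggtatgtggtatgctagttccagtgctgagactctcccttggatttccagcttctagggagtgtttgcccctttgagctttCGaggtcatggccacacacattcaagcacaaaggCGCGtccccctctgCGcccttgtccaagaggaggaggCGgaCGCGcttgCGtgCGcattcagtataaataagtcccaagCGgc
*Klf2*, chr8:72318812-72319032, plus strand, 221 bases, 28 CpGs: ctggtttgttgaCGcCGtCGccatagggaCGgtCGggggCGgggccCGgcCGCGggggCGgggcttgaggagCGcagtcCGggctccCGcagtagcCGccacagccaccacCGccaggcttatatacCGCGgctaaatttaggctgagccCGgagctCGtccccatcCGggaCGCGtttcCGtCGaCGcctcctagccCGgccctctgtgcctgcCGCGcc
*Klf4*, chr4:55532476-55532725, minus strand, 250 bases, 32 CpGs: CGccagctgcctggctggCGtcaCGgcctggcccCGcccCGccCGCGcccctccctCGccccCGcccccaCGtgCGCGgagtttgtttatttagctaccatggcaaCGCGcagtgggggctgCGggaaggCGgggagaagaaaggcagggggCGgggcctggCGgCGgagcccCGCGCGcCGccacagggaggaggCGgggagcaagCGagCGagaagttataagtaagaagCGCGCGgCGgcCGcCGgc
Over the full 300-base windows, *Zfp42* held 11 and *Nr0b1* 14 CpGs, *Klf2* 32, *Klf4* 40 and *Tfcp2l1* 21. The 2 windows of *Esrrb* held 7 each and those of *Nr5a2* 2 and 7, and the median over 32851 promoters was 7. *Esrrb* and *Nr5a2*, reached at Day 3 in c-Kit+ cells, thus held fewer CpGs than the late *Zfp42* and *Nr0b1*. Across the members CpG content did not follow the order of activation. Fewer CpGs than in the *Klf4* window were found in 96.1% of promoters and fewer than in the *Klf2* window in 90.5%. The letters TCAAGGTCA, an ESRRB-type motif, were in 0 of the 9 windows on either strand (0.423% of all promoters hold them). The STAT-type motif TTCNNNGAA was in 1 window, that of *Esrrb* at chr12:86360867-86361166 (8.30% of all), and the KLF-type motif CCNCNCCC in 8 of 9 (49.5% of all). A match describes these letters and is no evidence of binding.

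Turning to the KLF factors, which bind CACCC and GC boxes and overlap in what they do in embryonic stem cells, *Klf2* (chr8:72319033-72321656, plus strand) was highest in c-Kit+ and BV+SC+ cells. EpiSCs held 48.9, 6.31 and 6.30 TPM, with 1 library far above the other two. c-Kit- cells held 129 and 114 TPM and c-Kit+ cells 274 and 220 TPM, and BV+SC+ cells 227 and 208 TPM. Neither pair of groups overlapped. The c-Kit difference was 1.16 ± 0.14 (adjusted p = 0.000164, edgeR), or 2.24-fold, and without c-Kit+ replicate 1 it fell below 2-fold, to 0.98 (adjusted p = 0.000793). BV+SC+ cells stood 3.43 ± 0.66 above EpiSCs (adjusted p = 0.00308, edgeR), and 5.18 above them without EpiSC replicate 1.

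*Klf2* had the largest SGC0946 difference of the 9 members on the log2(TPM + 1) scale, and with a pseudocount of 0.1 *Nr5a2* (3.17) and *Zfp42* (3.02, from 0 and 3 counts) passed it (2.95). The unsorted libraries held 15.6 TPM (64 counts) without SGC0946 and 121 TPM (528 counts) with it, a log2 change of 2.88 (2.52 to 3.25). The value without SGC0946 lay within the EpiSC range and the value with it between EpiSCs and c-Kit- cells (147 and 162 rescaled TPM).

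*Klf5* (chr14:99298691-99315036, plus strand), which is needed for the inner cell mass and trophectoderm, was present throughout. The EpiSC libraries held 24.4, 14.1 and 14.2 TPM, c-Kit- cells 22.0 and 27.4, c-Kit+ cells 37.9 and 39.9, and BV+SC+ cells 51.4 and 88.0. The groups within each comparison did not overlap, though c-Kit+ and BV+SC+ cells did in rescaled TPM. The c-Kit difference, 0.80 ± 0.24 (adjusted p = 0.0238, edgeR), was 1.74-fold and thus under the fold threshold, and the rise from EpiSCs to BV+SC+ cells was 2.06 ± 0.32 (adjusted p = 0.00117, edgeR). With SGC0946 *Klf5* stood at 43.3 TPM, against 16.6 TPM without, a log2 change of 1.33 (0.93 to 1.74).

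*Klf4* (chr4:55527143-55532466, minus strand), a STAT3 target and one of the original reprogramming factors, was called in neither replicated comparison. Its EpiSC libraries held 40.4, 7.55 and 4.17 TPM, c-Kit- cells 104 and 105, c-Kit+ cells 84.5 and 83.8, and the BV+SC+ libraries 2.85 and 9.73 TPM. The highest levels were thus at Day 3 in the sorted cells, and BV+SC+ cells overlapped with EpiSCs. The c-Kit difference was -0.23 ± 0.12 (adjusted p = 0.142, edgeR) and the BV+SC+ difference was -1.32 ± 0.95 (adjusted p = 0.270, edgeR). The latter turned to 0.45 (adjusted p = 0.630) without EpiSC replicate 1, and it was called lower, at -2.69 (adjusted p = 0.0238), without BV+SC+ replicate 2. With SGC0946 the level was 13.3 TPM, against 6.79 TPM without, a log2 change of 0.88 (0.43 to 1.34). Both unsorted libraries held far less *Klf4* than the sorted populations, which ran from 117 to 135 rescaled TPM. By their labels the 2 sets of libraries also differ in RNA preparation, whose part was not tested.

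The libraries that set the spread of the KLF members stood apart in other genes too. EpiSC replicate 1 exceeded the mean of the other EpiSC libraries by 2.77 for *Klf2*, 2.64 for *Klf4* and 0.75 for *Klf5* on the log2 scale, where 2.26% of 10609 genes were over 2-fold higher in that library. In the same library *Socs3*, a feedback inhibitor induced by STAT3, was 1.82 higher, and *Id2*, a BMP target, 1.60 higher. The FGF-ERK targets *Dusp6* and *Spry4* were 1.38 and 1.47 higher, while *Etv4* (-0.04) and *Etv5* (-0.01), also FGF-ERK targets, were level. *Stat3* itself was at -0.11 and *Axin2*, a WNT target, at -0.57. These genes were picked after their values were seen, and their part in the *Klf2* and *Klf4* values was not tested.

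Between the BV+SC+ libraries *Klf4* was 3.41 times as high in the library described as GK15 as in that described as 2iJi (log2 difference of TPM + 1, 1.48, counting interval 1.16 to 1.79), and *Klf5* 1.71 times. The other 7 members ran from 0.657 times for *Nr0b1* to 1.05 times for *Esrrb*, so 1 of 9 differed by over 2-fold, beside 11.4% of 13574 genes. In the GK15 library *Socs3* was 4.71 times, *Stat3* 2.97 times and *Dusp6* 4.78 times as high as in the 2iJi library, the WNT target *Axin2* 0.251 times and the primed factor *Otx2* 11.1 times; their part in the *Klf4* difference was not tested. These genes were picked after their values were seen.

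*Tfcp2l1* (chr1:118627945-118685168, plus strand), a CP2-family factor downstream of STAT3, rose early and did not separate the sorted populations. It was at 1.08, 0.79 and 0.32 TPM in EpiSCs, 9.53 and 8.29 TPM in c-Kit- cells, 11.7 and 6.50 TPM in c-Kit+ cells, and 42.0 and 38.4 TPM in BV+SC+ cells. The c-Kit groups overlapped. Their difference was 0.16 ± 0.27 (adjusted p = 0.663, edgeR), and -0.33 without c-Kit+ replicate 1, while BV+SC+ cells stood 5.80 ± 0.27 above EpiSCs (adjusted p = 6.31e-06, edgeR), or 55.8-fold. The unsorted libraries gave 3.62 TPM without and 4.27 TPM with SGC0946, a log2 change of 0.19 (-0.20 to 0.59), although the counts, 51 and 103, gave 0.89 as CPM. The effective length was 5620 bases without and 9057 bases with SGC0946.

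*Tbx3* (chr5:119670669-119684724, plus strand), a T-box factor of embryonic stem cells that also acts in extraembryonic endoderm and mesoderm, had the pattern least like the others. EpiSCs held 1 count in all. The unsorted Day 3 libraries held 2586 counts (296 TPM) without SGC0946 and 1478 counts (187 TPM) with it, c-Kit- cells 14.6 and 10.4 TPM, c-Kit+ cells 3.63 and 4.68 TPM, and BV+SC+ cells 3.18 and 2.37 TPM. No groups overlapped. The unsorted libraries lay above both sorted populations by 10.2-fold at least and 58.9-fold at most, with 188 and 297 against 5.04 to 18.4 rescaled TPM. By their labels the unsorted libraries were rRNA-depleted total RNA and the sorted ones mRNA, which cannot be told apart from other differences between these sets. The part of such differences in the *Tbx3* gap was not tested. *Tbx3* was the member for which the library with SGC0946 was lower, by -0.66 (-0.75 to -0.57), or -0.87 as CPM.

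Other values moved with the *Tbx3* level in the unsorted libraries. *Tbx2*, a paralog, was at 41.1 and 42.7 TPM there and at most 1.16 TPM in the sorted libraries, *Kdr*, a marker of mesoderm and endothelium, at 12.7 and 12.5 TPM against at most 1.43 TPM, and the WNT antagonist *Dkk1*, the gene nearest to *Tbx3* in pattern (root mean square difference 0.51), at 289 and 185 rescaled TPM without and with SGC0946. *Tbx2* and *Kdr* were chosen after their values were seen, and their part in the *Tbx3* level was not tested. The transcript on the opposite strand, *Tbx3os1*, shares 4.14% of the *Tbx3* sequence and had at most 2 counts in any library. Between the sorted populations *Tbx3* was lower in c-Kit+ cells by -0.99 ± 0.31 (adjusted p = 0.0312, edgeR), a change of 1.98-fold that missed the fold threshold. The call hung on the settings: the fold passed with RLE scaling factors or without the filter on low counts (-1.02), while the adjusted p was 0.190 in DESeq2 and rose above 0.05, to 0.0529, 0.0644 and 0.124, without c-Kit- replicate 2, c-Kit+ replicate 2 and c-Kit+ replicate 1 in turn. BV+SC+ cells exceeded EpiSCs by a ratio of 50.3 (8.92 to 1995, adjusted p = 0.00129, edgeR), but with all libraries thinned to the shallowest *Tbx3* no longer passed the filter on low counts.

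**Figure D4:**
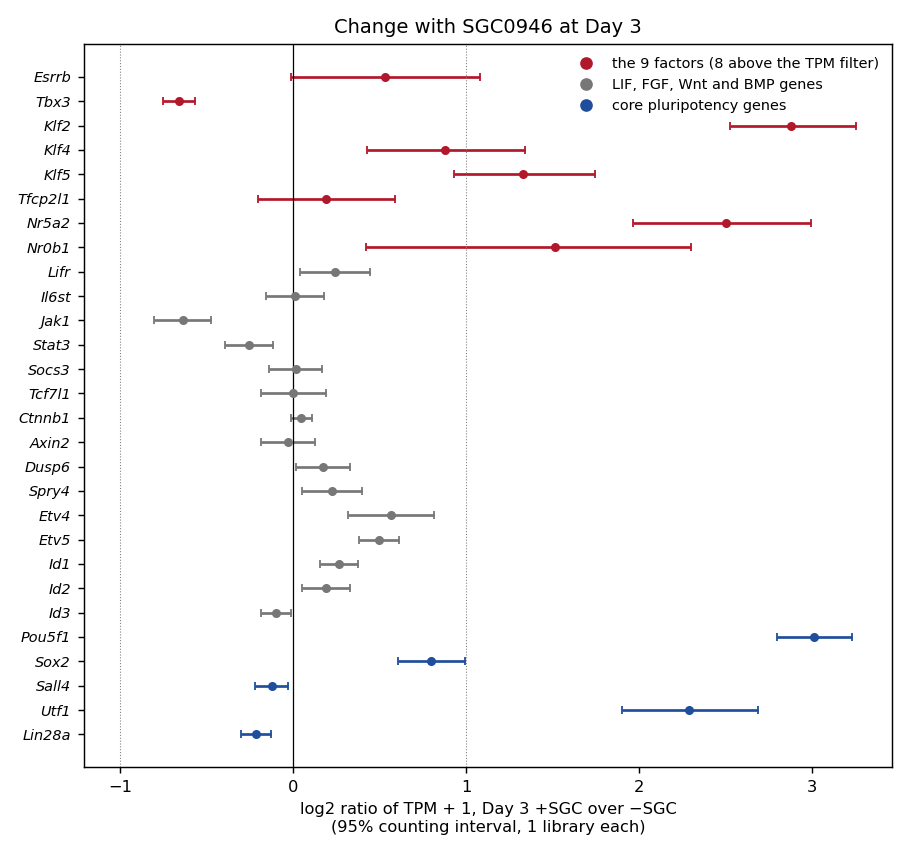
Log2 change in TPM + 1 of each member between the unsorted Day 3 libraries with and without SGC0946, with 95% counting intervals; the dotted lines mark 2-fold. There is 1 library on each side. *Klf2* (2.88) and *Nr5a2* (2.50) lie highest, the intervals of *Esrrb* and *Tfcp2l1* include 0, and *Tbx3* (-0.66) lies below 0.

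The changes with SGC0946 and with the c-Kit sort were not ordered alike across the members. *Klf2*, *Nr5a2* and *Klf5* were higher with SGC0946 and higher in c-Kit+ cells, although for *Klf5* the latter was under 2-fold. *Tbx3* gave -0.99 between the sorted populations and -0.66 with SGC0946, under 2-fold in each. *Esrrb* differed by 3.34 between the sorted populations and by 0.53 with SGC0946, whereas *Klf2* differed by 1.16 and 2.88. *Kit* itself was at 102 rescaled TPM without and 120 with SGC0946, against 138 and 135 in c-Kit+ cells. The 2 comparisons come from different sets of libraries, and the difference between them was not tested.

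Other genes of the naive network, a list of 16, moved with the members in each comparison. The counts of this list and those below stand beside the shares over all genes. Between c-Kit+ and c-Kit- cells 9.98% of all genes were called higher and 12.9% lower. Between BV+SC+ cells and EpiSCs these were 16.8% and 17.2%. With SGC0946 6.33% were over 2-fold higher and 3.45% lower. In c-Kit+ cells 8 of the 10 tested were higher, with *Tdh*, a threonine dehydrogenase of embryonic stem cells, at least 49.2-fold and *Gdf3* at least 31.6-fold higher. Both had 0 counts in c-Kit- cells and passed the filter on low counts through the c-Kit+ libraries alone, which favours calls in that direction. The same limit holds for each gene below whose fold is given as a lower bound. *Zfp57*, which guards imprints, was lower (-1.09 ± 0.27, adjusted p = 0.00985, edgeR) and *Tet2* was not called (0.11 ± 0.49). The median log2 fold change of the 10 was 5.11, or 3.98 with genes at 0 set to their bound.

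In BV+SC+ cells 13 of the 16 were higher than in EpiSCs and 0 lower, led by *Dppa3*, one of the reporters used for sorting, at least 340-fold, and the DNA methyltransferase cofactor *Dnmt3l*, at least 50.6-fold. *Gbx2* (-0.84 ± 0.40), *Fgf4* (-0.00 ± 0.18) and *Zfp57* (-0.02 ± 0.13) were not called. With SGC0946, 9 of 14 were over 2-fold higher and 0 lower, among them *Gdf3* by 3.63 (2.89 to 4.30) and *Nanog* by 2.97 (2.53 to 3.43). Of these, *Tcl1*, *Fbxo15*, *Dppa4* and *Dnmt3l* passed the 1 TPM filter through the library with SGC0946 alone, which favours rises. *Tcl1* rested on 0 and 3 counts without and with SGC0946, *Dppa3* on 3 and 21, and *Dppa5a* on 2 and 11.

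Genes of the core pluripotency network form a list of 5. *Pou5f1* (Oct4) was higher in c-Kit+ cells by 4.34 ± 0.12 (adjusted p = 1.45e-07, edgeR) and *Sox2* by a ratio of 304 (104 to 1478), 4 of 5 core genes being called higher there and *Lin28a* not (0.73 ± 0.12). Against EpiSCs, BV+SC+ cells were higher for *Sox2* (1.68 ± 0.23) and lower for *Utf1* (-1.31 ± 0.20) and *Lin28a* (-1.02 ± 0.13). With SGC0946 *Pou5f1* was higher by 3.01 (2.80 to 3.23) and *Utf1* by 2.29 (1.90 to 2.69), with 2 of 5 past 2-fold.

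Of 15 genes in the pathways that feed the members (LIF-STAT3, WNT, FGF-ERK and BMP), 4 were called higher in c-Kit+ cells and 0 lower, and all 4 are FGF-ERK targets: *Etv5* (4.93 ± 0.14), *Spry4* (4.86 ± 0.20), *Dusp6* (3.29 ± 0.16) and *Etv4* (2.50 ± 0.14). BV+SC+ cells were higher than EpiSCs for 4, among them the LIF receptor *Lifr* (3.03 ± 0.22) and *Axin2* (2.84 ± 0.53), and lower for 3, among them *Dusp6* (-3.52 ± 0.74) and *Tcf7l1* (-1.49 ± 0.22), the repressor of *Esrrb* named above. With SGC0946 0 of the 15 passed 2-fold, in either direction. Over all genes 16.8% were called higher and 17.2% lower between BV+SC+ cells and EpiSCs, and 9.78% passed 2-fold with SGC0946.

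Primed genes, a list of 12, fell on the way to Day 6. Against EpiSCs 9 of 12 were lower in BV+SC+ cells, with *Pou3f1* (-7.07 ± 0.48) and *Sox3* (-6.05 ± 0.33) the furthest, and *Otx2* (-1.70 ± 0.82), *Lef1* (0.69 ± 0.46) and *Nodal* (-0.50 ± 0.15) not called. At Day 3 the sorted populations were mixed: 4 of 9 were higher in c-Kit+ cells, led by *Sox3* (5.82 ± 0.23) and *Otx2* (ratio 52.3, 8.96 to 2106), and 2 lower, *Pou3f1* (-3.45 ± 0.39) and the de novo methyltransferase *Dnmt3a* (-1.17 ± 0.19). With SGC0946 2 of 10 were higher, *Nodal* (2.03, 1.29 to 2.75) and *Zic5* (1.52, 0.83 to 2.07). *Zic5*, at 3 counts without and 19 with SGC0946, passed the 1 TPM filter through the latter library alone.

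Germ cell genes, a list of 7, rose with the members. In c-Kit+ cells 5 of 6 were higher, led by *Nanos3* (at least 15.2-fold) and *Kit*, the gene sorted on (5.28 ± 0.21), while *Tfap2c* was not called (0.23 ± 0.10). All 7 were higher in BV+SC+ cells than in EpiSCs. They include *Prdm1*, whose reporter was used to sort the BV+SC+ cells, so its rise was set by the sort. With SGC0946 5 of 7 were over 2-fold higher. Trophoblast markers went the other way at Day 3: 10 of 13 were lower in c-Kit+ cells, with *Plac1* (-4.40 ± 0.31) and *Gata2* (-3.52 ± 0.14) the furthest, 2 were higher, *Eomes* (3.46 ± 0.35) and *Cdx2* (1.53 ± 0.26), and *Gata3* was not called (-0.96 ± 0.39). BV+SC+ cells were called higher than EpiSCs for 5 of 7 tested, among them *Tead4* (3.87 ± 0.53) and *Peg10* (2.39 ± 0.40). *Klf5* and *Esrrb* are expressed in trophoblast as well as in naive cells, and the part of such cells in the members' levels was not tested. With SGC0946 1 of 13 trophoblast markers was over 2-fold higher (*Eomes*) and 1 lower (*Cdx2*, -1.01, -1.22 to -0.81). *Eomes*, at 2 counts without and 20 with SGC0946, passed the 1 TPM filter through the latter library alone.

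Endoderm markers summed to 2.11 to 34.6 TPM over 8 genes in any library, with 2 to 4 of the 8 at 0 in each Day 3 library. Of the 2 tested between the sorted populations, *Sox17* was lower in c-Kit+ cells (-3.01 ± 0.65, adjusted p = 0.00531, edgeR). *Dab2* was higher there (1.99 ± 0.69, adjusted p = 0.0431, edgeR). With SGC0946 1 of 4 was over 2-fold higher, *Dab2* (1.22, 0.82 to 1.63), and 2 were lower, *Gata6* (-1.36, -1.79 to -0.94) and *Gata4*, from 9 counts to 1. Mesoderm markers summed to 151 and 190 TPM over 6 genes in c-Kit+ cells, of which *T* (Brachyury), a gene of the primitive streak, gave 151 and 187 TPM, and to 2.44 and 3.62 TPM in c-Kit- cells. *T* was also at 16.9 TPM with and 2.64 TPM without SGC0946. The part of such cells in the members' levels was not tested.

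Relatives of the members within their own families were counted in the same way. Of 14 other KLF genes, 1 of 10 tested was called higher in c-Kit+ cells, *Klf15* (1.75 ± 0.31), and 0 lower. Against EpiSCs BV+SC+ cells were higher for *Klf8* (3.52 ± 0.21) and *Klf11* (1.57 ± 0.26) and lower for *Klf13* (-1.40 ± 0.14) and *Klf12* (-1.21 ± 0.44), 4 of 11 tested. Over all genes 9.98% were called higher in c-Kit+ cells, and 34% were called between BV+SC+ cells and EpiSCs. The KLF counts were thus near the background. *Klf8* stood at 50.5 and 30.1 TPM in BV+SC+ cells and 2.26 to 3.56 TPM in EpiSCs. With SGC0946 0 of 13 were over 2-fold higher and 1 was lower, *Klf1*, from 5 counts to 0.

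Among 11 other paralogs, which are nuclear receptors, T-box, CP2-family and YY1-family genes, 0 of the 5 tested were called between the sorted populations. BV+SC+ cells were higher than EpiSCs for *Tbx4* (at least 24.9-fold) and the YY1-family gene *Yy2* (3.15 ± 0.46), 2 of 6 tested, and *Yy2* was also higher with SGC0946 (1.60, 0.90 to 2.25), 1 of 7. The shares over all genes were 22.9% called between the sorted populations, 34% called between BV+SC+ cells and EpiSCs, and 6.33% higher with SGC0946.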

How the data were processed

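RNA was sequenced in 11 libraries. According to the labels, the EpiSC, BV+SC+ and unsorted Day 3 libraries were rRNA-depleted total RNA, and the sorted Day 3 libraries mRNA, while the study's methods name an mRNA kit. This difference cannot be told apart from that between the sets of libraries. The authors aligned reads with Bowtie2 and estimated gene values with RSEM 1.3.1, and deposited expected counts and TPM values per gene. The annotation in the methods is GENCODE M13, with 50600 genes for the sorted Day 3 libraries and 29267 for the others.

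Expected counts were rounded and tested with edgeR 4.0.16 (quasi-likelihood F test, TMM factors, default filter on low counts) in R 4.3.3, c-Kit+ against c-Kit- and BV+SC+ against EpiSC separately, over all genes with Benjamini-Hochberg adjustment. A call was an adjusted p under 0.05 with a fold over 2. The single libraries with and without SGC0946 were compared as log2(TPM + 1) over genes above 1 TPM in either, with intervals at the 95% level from the counts. A pseudocount understates the change of low genes. Folds against groups at 0 used 3 counts per library as the limit. No test crosses the sets of files; TPM was rescaled over their 28910 common genes for levels. Depth is given in the report, and intervals and limits cover counting error only. Positions are from GENCODE M21 (GRCm38).

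The members and gene lists were chosen with earlier results of these data known. Beside the members, the genes named were *Kit*, *Prdm1*, *Dppa3* and *Dot1l*, from each list and comparison the 2 called rises and the 2 called falls that were largest among genes with a mean of at least 5 TPM, with the exceptions where there were 5 or fewer, and for each member the nearest member and the 2 nearest other genes by the root mean square difference of centred group means of log2(TPM + 1); some of the nearest are left out for brevity, and any other gene was chosen after its values were seen. Alternatives were DESeq2 1.42.0, other scaling factors, filters and pseudocounts, a replicate block, thinning to equal depth and leaving out each replicate. The edgeR fit and the intervals were tested on simulated data. Single-cell, chromatin and accessibility samples were not analysed here. Data handling used Python 3.11.15, pandas 2.3.3, NumPy 2.4.6 and SciPy 1.17.1, and Matplotlib 3.10.9 drew the figures.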

Additional observations from a re-analysis of the deposited data

How the results depend on the processing

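With at least 10 counts in every library, 3 members could be tested between BV+SC+ cells and EpiSCs and 2 were called, since the other 6 had fewer counts in EpiSCs; without a filter 9 were called, *Klf4* as lower (-1.28, adjusted p = 7.98e-05, edgeR). That fit called 5046 genes, 56.0% of them higher against 49.4% with the filter, and moved the median of all genes to 0.29. Between c-Kit+ and c-Kit- cells 4 members were called with RLE factors and without a filter, *Tbx3* being the addition, and 2 with at least 10 counts in every library. Leaving out 1 replicate each gave 2 to 4 members and 2064 to 2908 genes called between the sorted cells, and 8 to 9 members and 3945 to 4650 genes between BV+SC+ cells and EpiSCs. Such omissions took *Tfcp2l1* between the sorted cells from -0.33 (without c-Kit+ replicate 1) to 0.49, and *Klf4* between BV+SC+ cells and EpiSCs from -2.69 to 0.45 (without EpiSC replicate 1); the cause was not tested. With 1 library left in a group, that library is assumed to vary like the others. Thinned to the shallowest library, 8 members could be tested between BV+SC+ cells and EpiSCs and 7 were called; *Tbx3* was the 1 not tested. With a replicate block the members called stayed at 3 and 8, and the genes called were 2527 and 3830. The same-numbered c-Kit libraries had deviations correlated at 0.114. For the same-numbered EpiSC and BV+SC+ libraries the values were -0.035 (replicate 1) and 0.004 (replicate 2), so no pairing was assumed. With SGC0946, 721 genes passed 2-fold as CPM and 555 with TPM over 1 in both libraries, against 1373. The median share of the rise in c-Kit+ cells was 58.6% on deposited TPM, 69.8% over protein-coding genes, 57.9% with TMM over all 11 libraries and 77.2% with a pseudocount of 0.1, and ran from 67.7% to 81.6% with 1 replicate left out. The shares with and without SGC0946 were 61.7% and 25.9% with the pseudocount of 0.1. On deposited TPM *Tbx3* (3.63 and 4.68) did not reach 5 TPM in c-Kit+ cells. The other levels for the order of activation and that scaling were chosen after seeing the data.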
